A study of Chimonocalamus delicatus with 27 samples.

Results

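PH02Gene12978 and PH02Gene12976 are genes of the bamboo Chimonocalamus delicatus that the deposited tables describe as early nodulin-93. They were chosen by identifier, because they are described so and were very abundant in the 0.5-year stem, and they make up 2 of the 55972 genes in the growth stage table and 2 of the 57356 genes in the plant part table. The study measured gene expression by RNA sequencing of mRNA and asked about terpene genes at different ages of the culm, as the bamboo stem is called, and in different plant parts. Its 27 libraries fall into 9 groups of 3, with no treatment beyond age and part in the labels. The growth stage set held the bamboo shoot and stems of 0.5, 1, 2 and 3 years, and the plant part set held leaves, branches, rhizomes and stems whose age the labels do not give, called the part-set stem here. The labels do not say whether replicates came from separate plants, so a p-value here reflects library-to-library spread that may be technical.

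Early nodulin-93 was named from legume root nodules, where its transcript appears early in nodule formation. Grasses form no such nodules but carry a small family of these genes, whose products are short membrane proteins. In rice an early nodulin-93 gene responds to the nitrogen supply, and in Arabidopsis the protein has been reported in mitochondria, where it binds cytochrome c oxidase, the last complex of the respiratory chain.

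Both genes were low in the shoot, among the most abundant transcripts of the 0.5-year stem, and lower but still abundant in older stems. PH02Gene12978 had 2.89, 1.47 and 1.80 FPKM (fragments scaled by transcript length and library size) in the shoot libraries. It had 948, 889 and 934 FPKM in the 0.5-year stem, 1220, 406 and 120 FPKM in the 1-year stem, 440, 184 and 332 FPKM in the 2-year stem, and 441, 352 and 184 FPKM in the 3-year stem. The 3 shoot libraries lay below every stem library of this set, and the 0.5-year libraries lay above all those of 2 and 3 years. The 1-year stem overlapped every other stem age, since its library 1 was the highest of the 15 libraries and its library 3 the lowest of the 12 stem libraries. PH02Gene12978 ranked 11 by mean FPKM among the 37747 genes above 0 in the 0.5-year stem, and 23224 among 39798 in the shoot.

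PH02Gene12976 had 6.17, 0.339 and 3.43 FPKM in the shoot libraries. It had 493, 477 and 506 FPKM in the 0.5-year stem, 326, 118 and 20.7 FPKM in the 1-year stem, 100.1, 34.9 and 70.7 FPKM in the 2-year stem, and 110, 119 and 54.3 FPKM in the 3-year stem. The 0.5-year libraries lay above all others, and the older stems overlapped each other. Its rank was 1435 in the 2-year stem, against 64 in the 0.5-year stem. The members were chosen for these levels, so the 0.5-year stem and the shoot are described without a test.

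**Figure D1:**
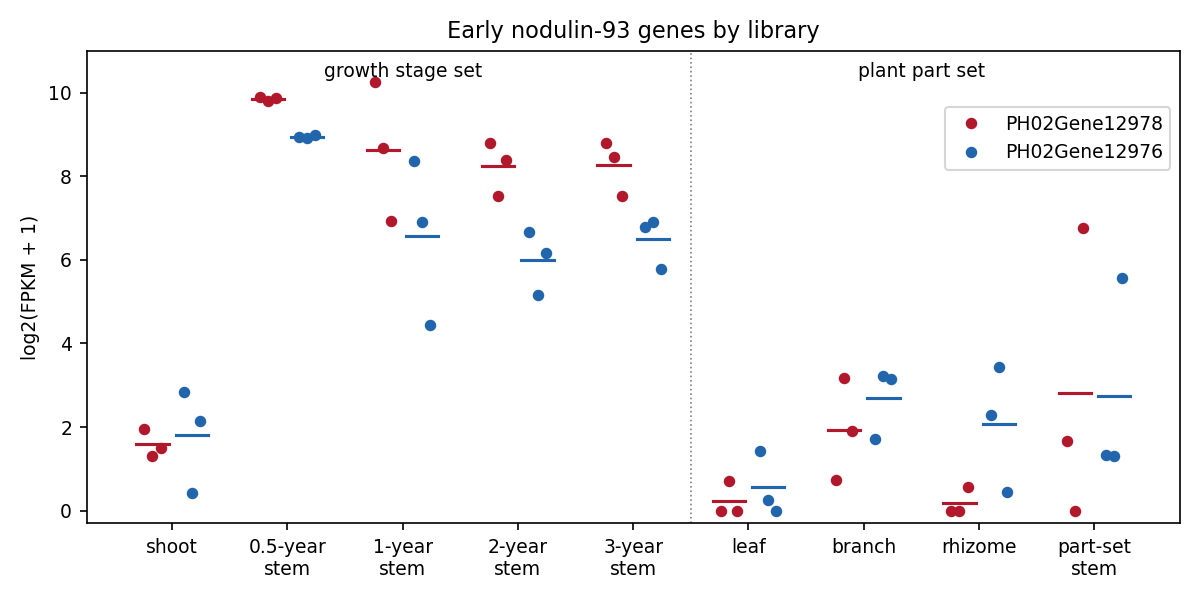
Expression of PH02Gene12978 and PH02Gene12976 in each library, on a log2(FPKM + 1) axis, by group, with points for the 3 libraries and a bar for their mean. The shoot lies at 6.17 FPKM or below and the 0.5-year stem at 477 FPKM or above for both genes, while the part-set stem holds 1 library far above the other two.

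The order of the group means was the same for both genes across stages, with the 0.5-year stem at the top, then the 1-, 3- and 2-year stems and the shoot at the bottom. PH02Gene12978 averaged 2.05 ± 0.744 FPKM in the shoot, 923 ± 30.9 FPKM at 0.5 years, 582 ± 570 FPKM at 1 year, 319 ± 128 FPKM at 2 years and 326 ± 131 FPKM at 3 years (SD, n = 3 each). PH02Gene12976 averaged 3.31 ± 2.92, 492 ± 14.1, 155 ± 156, 68.6 ± 32.7 and 94.4 ± 35.1 FPKM in the same groups (SD, n = 3 each). The 0.5-year mean was 450-fold that of the shoot for PH02Gene12978 and 149-fold for PH02Gene12976. The 1-year mean was 0.63-fold and 0.32-fold that of the 0.5-year stem. These levels come from bulk tissue, in which fewer cells of a type and less RNA per cell cannot be told apart.

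Between the older stems neither gene was called by edgeR's quasi-likelihood test with Benjamini-Hochberg adjustment over all genes tested. PH02Gene12978 differed by -0.71 ± 0.61 on the log2 scale in the 2-year over the 1-year stem (SE, adjusted p = 0.58, edgeR), with a 95% interval of -1.90 to 0.48. PH02Gene12976 differed by -1.02 ± 0.75 in the same comparison (adjusted p = 0.51, edgeR), with an interval of -2.49 to 0.44. In that comparison 1.5% of all genes were called. The 3-year over the 1-year stem, in which 10% of genes were called, gave -0.70 ± 0.61 for PH02Gene12978 and -0.58 ± 0.74 for PH02Gene12976 (adjusted p = 0.503 and 0.665, edgeR). In the 3-year over the 2-year stem, in which 0.00677% were called, the differences were 0.01 ± 0.60 and 0.44 ± 0.74 (adjusted p = 1 and 0.98, edgeR). The intervals of the last comparison reached from -1.17 to 1.20 and from -1.02 to 1.90, so changes of more than 2-fold in either direction lie within them. The unadjusted p was lowest at 0.194 over these 6 tests, and limma and DESeq2 called none either.

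The direction between the 1-year stem and the older stems rested on 1 library. Without 1-year library 1, PH02Gene12978 was 0.53 higher in the 2-year stem and 0.55 higher in the 3-year stem on the log2 scale, and PH02Gene12976 was 0.24 and 0.68 higher, none of them called. That library was more than 2-fold above both other 1-year libraries in 2.03% of the 16585 genes that reached 5 FPKM there, and the early nodulin-93 genes were among them. By the same measure library 3 stood apart in more genes, 2.83%, and library 2 in 0.681%. Marker genes of lignified secondary walls (cellulose synthases of the secondary wall and laccases) summed to 45.5, 11.5 and 93.7 FPKM in 1-year libraries 1, 2 and 3, all 5 being above 0 in the group. Phloem markers summed to 25.0, 24.7 and 30.0 FPKM there, with 7 of 8 above 0. Photosynthesis markers summed to 57.4, 77.5 and 56.9 FPKM and dividing-cell markers to 51.9, 60.1 and 56.1 FPKM. A root endodermis list, which also took in SCARECROW-like genes, summed to 1215, 1043 and 933 FPKM and so had the same order as the early nodulin-93 genes, highest in library 1 and lowest in library 3. The part of these differences in the result was not tested.

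The spread within the 0.5-year stem was far smaller than in the other groups, for these genes and for the transcriptome. The coefficient of variation of PH02Gene12978 was 98.0% at 1 year, against 3.34% at 0.5 years. Over all genes the biological coefficient of variation estimated by edgeR was 5.43% for the 0.5-year libraries and lay between 24.3 and 44.2% for the remaining stages. The 0.5-year libraries differed by more than counting noise, with a chi-square of 1.76 to 2.41 per degree of freedom between pairs, which does not show that they came from separate samples. They were used as the 3 samples the labels give, and the fit was also run with them summed to 1.

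In the plant part set both genes were low, and most of their signal came from 1 stem library. PH02Gene12978 had 0, 0.641 and 0 FPKM in leaf, 0.655, 8.05 and 2.73 FPKM in branch, 0, 0 and 0.478 FPKM in rhizome, and 2.15, 0 and 107.6 FPKM in the part-set stem. Summed over libraries these were 4 counts in leaf, 70 in branch, 3 in rhizome and 670 in the part-set stem, of which library 3 held 657. The libraries at 0 counts allow up to 0.335 to 0.399 CPM (counts relative to the library total), the level of 3 counts, and such limits cover counting error only. Leaf and rhizome overlapped, and the part-set stem overlapped every other part.

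PH02Gene12976 had 1.67, 0.185 and 0 FPKM in leaf, 2.27, 8.36 and 7.89 FPKM in branch, 3.88, 9.86 and 0.368 FPKM in rhizome, and 1.53, 1.47 and 46.2 FPKM in the part-set stem. Its counts summed to 9 in leaf, 98 in branch, 74 in rhizome and 259 in the part-set stem. Part-set stem library 3 was again the highest, while libraries 1 and 2 lay at the level of leaf library 1. In rhizome PH02Gene12976 gave 74 counts and PH02Gene12978 gave 3, while in leaf both had under 10 counts.

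Levels cannot be tested across the sets, which stand in separate tables. Part-set stem library 3, at 107.6 FPKM of PH02Gene12978, lay just below the lowest 1-year library at 120 FPKM, while part-set stem libraries 1 and 2 lay at or below the shoot's level.

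Of the 12 tests between parts 3 were called, all of them lower than in the part-set stem, and all rested on stem library 3. Limma on log2(FPKM + 1) called none of the 3 (adjusted p = 0.153 and 0.141 for PH02Gene12978 and PH02Gene12976 in leaf, and 0.154 for PH02Gene12978 in rhizome). A fit of only the 6 libraries compared kept that of PH02Gene12978 in leaf and lost those of PH02Gene12976 in leaf and PH02Gene12978 in rhizome (adjusted p = 0.0562 and 0.0993, edgeR). PH02Gene12978 was lower in leaf than in the part-set stem (adjusted p = 0.0249, edgeR), a comparison in which 36.6% of all genes were called, 17.5% higher and 19.1% lower. The ratio of summed CPM was 0.00593, with a 95% counting interval of 0.00161 to 0.0153. Such an interval covers counting error only and leaves out the spread between libraries, which was wide in the part-set stem. It was also lower in rhizome than in the part-set stem (adjusted p = 0.0262, edgeR), where 29.6% of genes were called (15% lower), with a ratio of 0.00423 and a counting interval of 0.00087 to 0.0124. PH02Gene12976 was lower in leaf than in the part-set stem by -4.67 ± 1.67 on the log2 scale (SE, adjusted p = 0.0473, edgeR). Without part-set stem library 3 these adjusted p-values were 0.396, 0.295 and 0.569, and the groups overlapped both with and without that library. The call for PH02Gene12978 in leaf also ended without any single leaf library (adjusted p = 0.0617 to 0.0862, edgeR), and that in rhizome without rhizome library 1 or 2 (adjusted p = 0.0901 and 0.0589, edgeR). That for PH02Gene12976 ended without any single leaf or branch library or rhizome library 1 (adjusted p = 0.0515 to 0.135, edgeR). Library 3 lay more than 2-fold above both other stem libraries in 5.62% of 18010 genes. Photosynthesis markers (chlorophyll binding proteins and the small subunit of Rubisco) summed to 3125, 1893 and 819 FPKM in part-set stem libraries 1, 2 and 3, with 7 genes of that list at 0 throughout the group. The part of these differences between stem libraries in the result was not tested.

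The other 9 tests between parts were not called in the fit of all groups. PH02Gene12976 differed by -1.81 ± 1.37 in rhizome over the part-set stem (adjusted p = 0.342, edgeR). Branch over the part-set stem, in which 0.79% of genes were called, gave -3.37 ± 1.66 for PH02Gene12978 and -1.54 ± 1.35 for PH02Gene12976 (adjusted p = 0.366 and 0.661, edgeR). Both values changed sign without stem library 3, to 1.66 and 1.95, again uncalled, and so did that of PH02Gene12976 in rhizome, to 1.61. Leaf over branch, with 34.7% of genes called, gave -3.80 ± 2.19 and -3.13 ± 1.64 (adjusted p = 0.206 and 0.163, edgeR). A fit of only the 6 libraries compared did call leaf over branch for both genes, with values in the closing section. Leaf over rhizome, with 45.8% called, gave -2.86 ± 1.65 for PH02Gene12976 (adjusted p = 0.177, edgeR). No fold is given for PH02Gene12978 there, as it had 4 counts in leaf and 3 in rhizome. Rhizome over branch, with 28.1% called, gave -0.27 ± 1.36 for PH02Gene12976 (adjusted p = 0.90, edgeR), with an interval of -2.95 to 2.4. PH02Gene12978 gave a ratio of 0.0396 in summed CPM there, with a counting interval of 0.00797 to 0.121 (adjusted p = 0.174, edgeR).

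The proportion between the genes varied between libraries. The FPKM of PH02Gene12978 over that of PH02Gene12976 was 0.468, 4.33 and 0.526 in the shoot libraries and 1.92, 1.86 and 1.85 in the 0.5-year stem. It was 3.74, 3.44 and 5.81 in the 1-year stem, 4.39, 5.28 and 4.70 in the 2-year stem, and 4.02, 2.95 and 3.39 in the 3-year stem. All 9 older stem libraries lay above the 3 of 0.5 years, which is a description, as the genes were chosen on the 0.5-year stem. The 3-year libraries all lay below the 2-year ones and the 1-year stem overlapped both. Over the 1-, 2- and 3-year stems the difference in the log2 ratio did not pass the test (exact permutation test over 1680 assignments of 9 libraries, p = 0.182, and 0.32 after adjustment over 2 such tests). Across the plant parts the means of the log2 ratio of FPKM + 1 were -0.31 in leaf, -0.76 in branch, -1.87 in rhizome and 0.07 in the part-set stem (exact permutation test over 369600 assignments of 12 libraries, p = 0.32). PH02Gene12978 was at 0 in leaf libraries 1 and 3, rhizome libraries 1 and 2 and part-set stem library 2. Both genes were at 0 in leaf library 3, where the added 1 alone sets the ratio. These means and this test therefore depend on the added 1 and say little about the proportion in the parts. As a description, the log2 levels of both genes correlated with r = 0.953 over the 15 growth stage libraries and r = 0.754 over the 12 plant part libraries, in points that share a library and its depth.

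**Figure D2:**
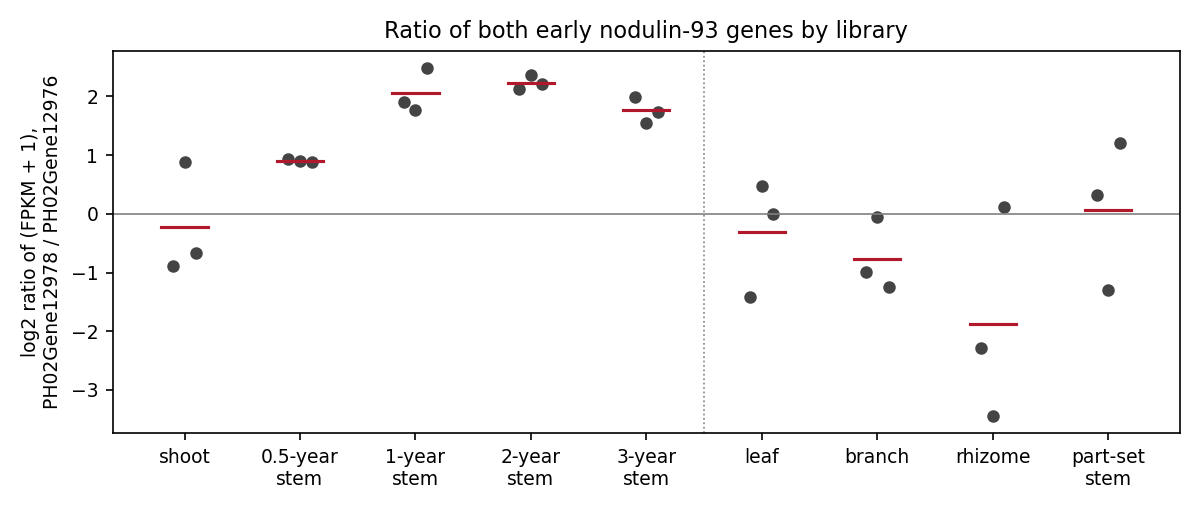
Log2 ratio of FPKM + 1 of PH02Gene12978 over PH02Gene12976 in each library by group, with a bar for the mean of 3 libraries. The 9 libraries of the 1-, 2- and 3-year stems lie above the 3 of the 0.5-year stem. Shoot library 2 lies level with the 0.5-year stem and part-set stem library 3 above it, and the other shoot and plant part libraries lie below it.

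Each table held 11 genes described as early nodulin-93, in blocks of neighbouring identifiers. PH02Gene12975 to PH02Gene12979 and PH02Gene20265 to PH02Gene20267 are named after genes of Setaria italica or other grasses, and PH02Gene05319, PH02Gene05324 and PH02Gene40023 after Zea mays. The listed pair is not the whole of the abundant group, since PH02Gene20265 averaged 884 ± 42.4 FPKM and PH02Gene20266 794 ± 26.1 FPKM in the 0.5-year stem (SD, n = 3), both above PH02Gene12976. Together the listed genes made up 2.67 to 8.23% of the family's FPKM in the shoot libraries, 43.1 to 45.0% in the 0.5-year stem and 36.0 to 54.4% in the older stems. The family took 0.197 to 0.206% of all counts in the 0.5-year libraries and 0.00493 to 0.00805% in the shoot.

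Of the 9 family genes that were not listed, 8 passed the expression filter in the growth stage set, and 5 of them rose in the 0.5-year stem over the shoot while none fell by edgeR. PH02Gene40023 was called lower by limma, by DESeq2 and without shoot library 3, and PH02Gene05324 by limma. The median log2 change over the 8 was 5.57, against -0.04 over all genes tested, and 26.5% of all genes were called higher and 27.3% lower. A gene could pass the filter through the group where it is high, and the family was known from these data to be abundant at that stage. The counting also split reads between the listed genes and PH02Gene12975, PH02Gene20265 and PH02Gene20266. These rises are therefore a description and no independent support for those of the listed genes. PH02Gene20265 had 884 ± 42.4 FPKM at 0.5 years, against 25.4 ± 11.8 FPKM in shoot (log2 change 5.45 ± 0.76 (SE), adjusted p = 4.32e-05, edgeR). PH02Gene20266 had 794 ± 26.1 FPKM, against 19.6 ± 13 FPKM (log2 change 5.68 ± 0.85, adjusted p = 8.5e-05, edgeR). PH02Gene12977 had 39.1 ± 2.27 FPKM, against 0.24 ± 0.159 FPKM (log2 change 7.58 ± 1.10, adjusted p = 6.42e-05, edgeR). PH02Gene12975 and PH02Gene20267 averaged 42.1 ± 8.61 and 29.8 ± 1.70 FPKM at 0.5 years, against 2 counts and 1 count summed over the shoot libraries (adjusted p = 2.17e-05 and 9.26e-05, edgeR).

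The genes named after Zea mays were lower in the 0.5-year stem than PH02Gene12975, PH02Gene12977 and PH02Gene20267 and were not called there by edgeR. PH02Gene40023 averaged 7.50 ± 1.33 FPKM at 0.5 years, against 14.2 ± 3.26 FPKM in the shoot (log2 change -0.58 ± 0.25, adjusted p = 0.0609, edgeR). PH02Gene05319 and PH02Gene05324 averaged 5.46 and 6.97 FPKM at 0.5 years, against 6.58 and 10.8 FPKM in the shoot (adjusted p = 0.847 and 0.29, edgeR). PH02Gene12979 was at 0 counts in all 27 libraries. Between the 1-year and 0.5-year stems edgeR called none of the 8 tested family genes, nor did any reach an unadjusted p under 0.05, while 30.4% of all genes were called. DESeq2 called none, and limma called 2 lower, PH02Gene20265 and PH02Gene20266.

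PH02Gene20267 had its highest mean in the 1-year stem, unlike the listed genes. It averaged 51.5 ± 55.6 FPKM at 1 year, against 29.8 ± 1.70 FPKM at 0.5 years, with 1-year libraries between 3.21 and 112 FPKM. The difference was within the spread (log2 change 0.80 ± 0.71, adjusted p = 0.417, edgeR).

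In the plant parts 5 of the 9 unlisted family genes passed the filter. Of these 5, edgeR called 2 lower in leaf than in branch, 3 than in rhizome and 2 than in the part-set stem. That is 40, 60 and 40% of them, against 34.7, 45.8 and 36.6% of all genes called in either direction. PH02Gene20265 and PH02Gene20266 were lower in leaf than in branch, rhizome and part-set stem, with 0 counts and 1 count in the 3 leaf libraries together. PH02Gene20265 averaged 9.996 ± 2.50 FPKM in branch, 8.65 ± 3.85 in rhizome and 30.1 ± 34.2 in the part-set stem, and its adjusted p-values for leaf were 0.00849, 0.00682 and 0.00216 against these parts (edgeR). PH02Gene20266 averaged 5.77 ± 2.41, 9.49 ± 2.16 and 22.5 ± 23.3 FPKM there (adjusted p = 0.00258, 0.000722 and 0.000348, edgeR). The 2 calls against the part-set stem held without stem library 3, while those of the listed genes did not. PH02Gene40023 rose in rhizome, at 22.8 ± 9.90 FPKM, against 9.54 ± 3.06 FPKM in the part-set stem (log2 change 1.22 ± 0.40, adjusted p = 0.0391, edgeR). In that comparison 29.6% of all genes were called. PH02Gene40023 was also lower in leaf than in rhizome (log2 change -1.65 ± 0.40, adjusted p = 0.00627, edgeR). Its difference in rhizome over branch was not called (adjusted p = 0.0825, edgeR).

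**Figure D3:**
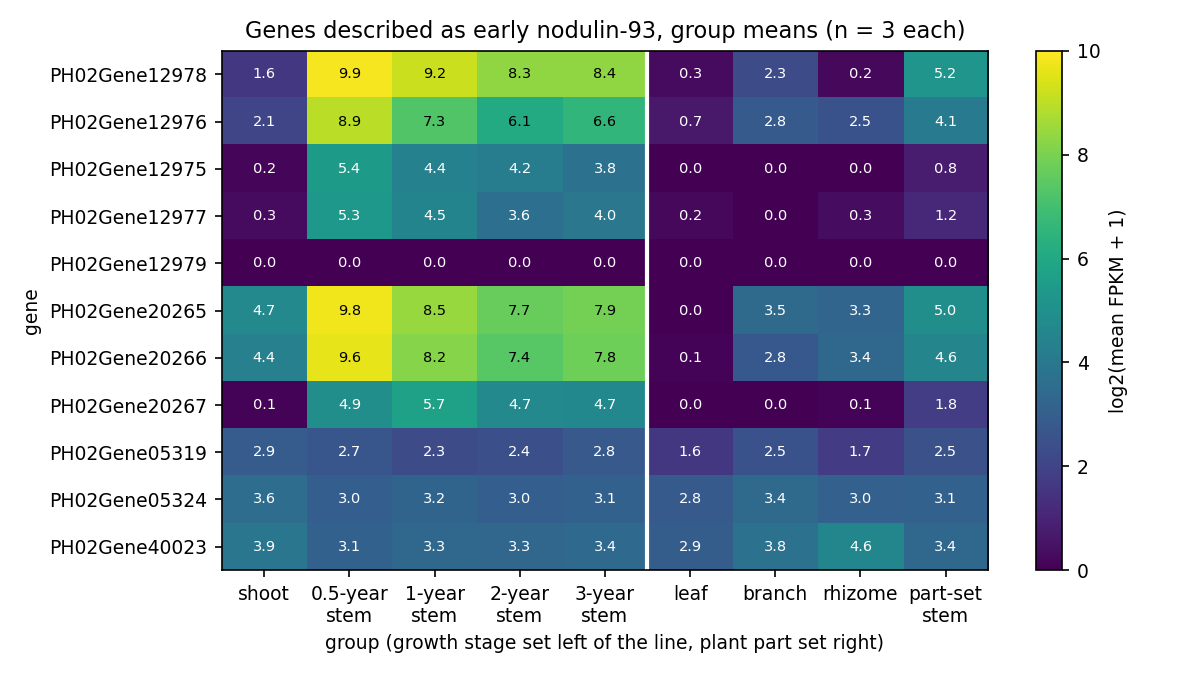
Group means of all 11 genes described as early nodulin-93, as log2(mean FPKM + 1), with the 5 growth stages on the left and the 4 plant parts on the right. The listed genes, PH02Gene20265 and PH02Gene20266 are highest in the 0.5-year stem, while PH02Gene05319, PH02Gene05324 and PH02Gene40023 stay between 2.05 and 22.8 FPKM in all groups.

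The family's counts are not independent of one another. Expected counts are whole where every read was given to 1 gene, taken here as within 0.05 of a whole number. PH02Gene12977 and PH02Gene20267 were whole in all 21 and 16 libraries in which they had counts, and PH02Gene12978 and PH02Gene12976 were whole in 13 of 22 and 17 of 26. Where PH02Gene12978 and PH02Gene12975 were both broken, their sum was whole in 7 of 9 libraries. Where PH02Gene12976, PH02Gene20265 and PH02Gene20266 were all broken, the sum of the 3 was whole in 7 of 7, and the sum of PH02Gene12976 and PH02Gene12978 was whole in 0 of 7. The counting thus split reads of PH02Gene12978 with PH02Gene12975, and reads of PH02Gene12976 with PH02Gene20265 and PH02Gene20266, and the size of these shares cannot be told from the tables.

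Other genes were ranked by the correlation of their log2(FPKM + 1) with the mean of the listed genes, taking the smaller r of both sets. The 16946 candidates were tested in both sets under a PH02Gene identifier. They also had a functional description and a highest group mean of 10 FPKM or more. The points share libraries and groups, so r is a description and carries no p. The r over the stages includes the shoot and the 0.5-year stem, for whose levels the listed genes were chosen. The first was PH02Gene15773 (P4H7), a prolyl 4-hydroxylase homologue, an enzyme class that hydroxylates proline in proteins of the cell wall, with r = 0.95 over 15 stage libraries and 0.906 over 12 part libraries. It averaged 106 ± 95.3 FPKM at 1 year, against 130 ± 6.17 FPKM at 0.5 years. Its mean was 5.01 FPKM in the shoot, 124 ± 45.4 FPKM at 2 years and 145 ± 46.2 FPKM at 3 years. Unlike the listed genes, it had its highest mean at 3 years, though the 0.5- and 3-year libraries overlapped. PH02Gene23251 (ERF071), an ethylene response factor, came next with r = 0.984 and 0.891, at 44.0 ± 40.2 FPKM at 1 year, against 104 ± 6.85 FPKM at 0.5 years. PH02Gene07862, a stearoyl-acyl carrier protein desaturase homologue that introduces a double bond into fatty acids, followed with r = 0.939 and 0.889. The next were PH02Gene03146 (a ZAT11 zinc finger homologue), PH02Gene09989 (AIP2, a ubiquitin ligase) and PH02Gene08036 (PFK3, a phosphofructokinase of glycolysis). PH02Gene08036 averaged 62.7 FPKM in the shoot and 551, 530, 480 and 572 FPKM at 0.5, 1, 2 and 3 years. Apart from PH02Gene15773 and PH02Gene08036, the first 6 genes had their highest stage mean at 0.5 years.

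The ranking depended on the measure and, in the plant parts, on stem library 3. With Spearman's rho only 1 of the first 6 genes stayed among the first 6, the desaturase PH02Gene07862, which then ranked 1. Without part-set stem library 3 the r of PH02Gene23251 over the parts was 0.653, that of PH02Gene15773 was 0.865 and that of PH02Gene07862 was 0.943. Likeness over the growth stages is common, with 271 genes at r of 0.9 or more, against 7 over the plant parts. Over the stages alone PH02Gene05488 (RAP2-2), an ethylene response factor of the group that activates low-oxygen genes in Arabidopsis, stood first with r = 0.989. It was followed by PH02Gene23251, PH02Gene37164 (GAPC, a glycolytic dehydrogenase, r = 0.983) and PH02Gene42846 (CIPK16, a protein kinase of calcium signalling, r = 0.976). Over the parts alone PH02Gene40701, a lipoxygenase homologue, was first with r = 0.913, and PH02Gene32023 (a TVP38 family membrane protein), PH02Gene39528 (CRF4) and PH02Gene30778 (FKBP15-1) followed at 0.908, 0.907 and 0.907. Their r over the stages was 0.836, 0.448, 0.537 and -0.785.

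**Figure D4:**
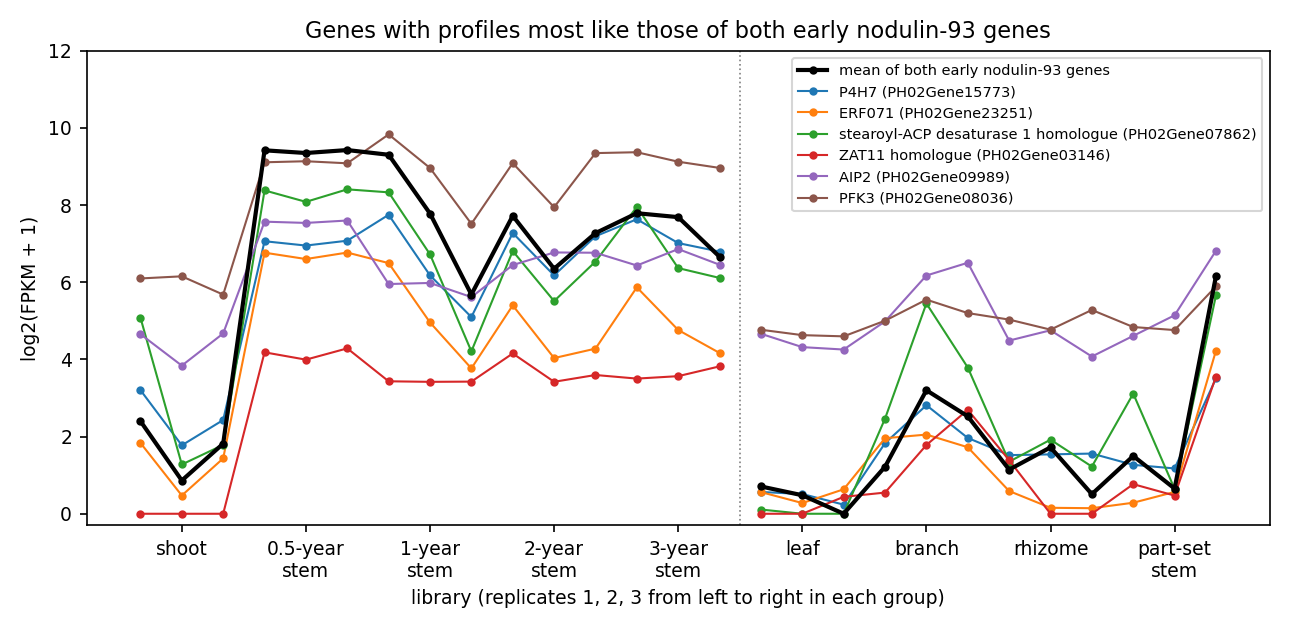
Log2(FPKM + 1) in each of the 27 libraries for the mean of both early nodulin-93 genes (black) and the 6 genes with the most similar profile over both sets. The black line and most coloured lines have their highest 1-year value in library 1 and their highest part-set stem value in library 3.

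Further gene lists were read for the 0.5-year stem over the shoot. Nitrogen and cytochrome c oxidase are linked with early nodulin-93 in other species, as described above, and a further list is linked by name only. For the low-oxygen list and that of bypasses of the respiratory chain no such link is given here. Of the low-oxygen list (ethylene response factors of the RAP2-12 type, fermentation enzymes, alanine aminotransferases, plant cysteine oxidases and hypoxia-induced domain proteins), 22 of 34 tested genes rose and 1 fell, with a median log2 change of 3.10, or 2.98 with genes at 0 in a group set to their bound. Of all genes 26.5% rose and 27.3% fell, with a median of -0.04. Limma called 22 genes of the list higher and 3 lower, and the fit without shoot library 3 called 23 higher and 2 lower. A gene of the list could pass the filter through the group where it is high. The list was chosen with earlier results of these data known, and its cinnamyl alcohol dehydrogenases were removed after values were seen. These counts are therefore a description. PH02Gene05488 (RAP2-2) averaged 92.2 ± 5.09 FPKM at 0.5 years, against 0.454 ± 0.326 FPKM in the shoot (log2 change 7.93 ± 0.79, adjusted p = 2.52e-06, edgeR). PH02Gene33378 (ADH1), an alcohol dehydrogenase of fermentation, averaged 353 ± 7.52 FPKM, against 73.1 ± 55.6 FPKM (log2 change 2.61 ± 0.50, adjusted p = 0.000579, edgeR). The exception was PH02Gene21869 (ALAAT2), an alanine aminotransferase, at 2.75 ± 0.836 FPKM, against 8.20 ± 2.88 FPKM (adjusted p = 0.0181, edgeR). With the 0.5-year libraries summed to 1 sample 21 genes of the list rose.

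The cytochrome c oxidase list, subunits and assembly factors of the complex that early nodulin-93 is reported to bind, was called less often than all genes in the same comparison. None of its 20 tested genes rose and 6 fell in the 0.5-year stem by edgeR, with a median of -0.31. That is 30% of the list in all, against 53.8% of all genes, and its share of lower calls is near the 27.3% of all genes. At an unadjusted p under 0.05 the count was 6, DESeq2 called 6 lower and limma 10 lower, and with the 0.5-year libraries summed none was called. PH02Gene12974 (COX5B-2), whose identifier is next to those of the early nodulin-93 block, fell to 0.90 ± 0.396 FPKM at 0.5 years, against 3.53 ± 1.44 FPKM in the shoot (log2 change -1.69 ± 0.49, adjusted p = 0.00968, edgeR). The most abundant subunit, MSTRG.17358 (COX6A), averaged 66.8 ± 0.778 FPKM, against 73.4 ± 10.6 FPKM (adjusted p = 0.281, edgeR).

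Genes of the bypasses of the respiratory chain were called in both directions, 9 of 21 higher and 3 lower, with a median of 0.03. That is 57.1% of the list in all, near the 53.8% of all genes, of which 26.5% were higher and 27.3% lower. PH02Gene13841 (PUMP5), a mitochondrial uncoupling protein homologue, averaged 279 ± 35.8 FPKM at 0.5 years, against 44.2 ± 34.7 FPKM in the shoot (log2 change 3.00 ± 0.46, adjusted p = 9.52e-05, edgeR). MSTRG.37171 (AOX1B), an alternative oxidase homologue, had the largest rise of the list, at 0.385 ± 0.0904 FPKM, against 0.024 ± 0.0416 FPKM (adjusted p = 0.0122, edgeR). PH02Gene44970 (NDB1), an external NAD(P)H dehydrogenase homologue, had the largest fall, at 0.535 ± 0.198 FPKM, against 2.57 ± 1.44 FPKM (log2 change -1.90 ± 0.44, adjusted p = 0.00232, edgeR). Of 125 tested genes of nitrogen uptake and assimilation 39 rose and 30 fell, a total of 55.2%, near the 53.8% of all genes. PH02Gene36458, an NADH-dependent glutamate synthase, averaged 387 ± 12.4 FPKM, against 95.6 ± 25.6 FPKM (log2 change 2.37 ± 0.37, adjusted p = 0.000115, edgeR). The largest rise and fall of that list were in transporters of the NRT1/PTR family, PH02Gene08759 (NPF8.3) at 2.89 ± 0.644 FPKM, with 0 counts in the shoot, and PH02Gene02944 (NPF6.3) with 0 counts at 0.5 years, against 3.23 ± 1.00 FPKM in the shoot (adjusted p = 2.64e-05 and 0.00059, edgeR). Early nodulin-like proteins share only the word with this family, and their list also took in mavicyanin homologues. Of its 23 tested genes 5 rose and 9 fell, a total of 60.9%, against 53.8% of all genes. The median of 0.99 was positive although more genes fell. The most abundant, PH02Gene27133, averaged 4.28 ± 0.856 FPKM at 0.5 years, against 2.11 ± 2.50 FPKM in the shoot (adjusted p = 0.033, edgeR). The largest rise was that of PH02Gene50793, at 0.864 ± 0.835 FPKM, against 0.123 ± 0.212 FPKM, and the largest fall that of PH02Gene13381, a mavicyanin homologue, at 0.03 ± 0.052 FPKM, against 4.59 ± 2.09 FPKM (adjusted p = 0.0402 and 0.00016, edgeR).

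Markers of other tissues moved with the same comparison. Dividing-cell markers summed to 50.9 to 55.1 FPKM in the 0.5-year libraries, against 189 to 723 FPKM in the shoot, with 18 of 36 genes at 0 throughout the 0.5-year group. Markers of lignified walls summed to 371 to 384 FPKM at 0.5 years, against 111 to 347 FPKM in the shoot, and none of the 5 was at 0. The root endodermis list summed to 1131 to 1157 FPKM, against 461 to 662 FPKM, and phloem markers to 13.7 to 15.8 FPKM, against 6.96 to 10.8 FPKM. Photosynthesis markers overlapped, at 222 to 254 FPKM, against 157 to 610 FPKM. The part of all these markers in the results was not tested. The labelled leaves had photosynthesis markers of 8419 to 10561 FPKM, against 17.1 to 24.2 FPKM in rhizome.

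In leaf over the part-set stem 3 of 29 tested low-oxygen genes rose and 10 fell, with a median of -1.16, against -0.04 over all genes. The largest fall was that of PH02Gene38260, a hypoxia-induced domain gene, at 0.0337 ± 0.0583 FPKM in leaf, against 14.9 ± 16.5 FPKM in the part-set stem (adjusted p = 0.00122, edgeR). PH02Gene20583 (PCO3), a plant cysteine oxidase, averaged 29.3 ± 1.69 FPKM in leaf, against 9.44 ± 0.631 FPKM (log2 change 1.72 ± 0.23, adjusted p = 0.000199, edgeR), the largest rise. PH02Gene15573 (PDC2), a pyruvate decarboxylase of fermentation, had the largest fall of the list in rhizome, at 1.28 ± 0.925 FPKM, against 17.1 ± 7.62 FPKM in the part-set stem (log2 change -3.81 ± 0.80, adjusted p = 0.00558, edgeR). Cytochrome c oxidase had 0 of 20 higher and 3 lower in leaf over the part-set stem by edgeR, and 4 at an unadjusted p under 0.05. For that list and comparison DESeq2 called 1 higher and 3 lower, and limma 3 lower. In leaf over the part-set stem 7 of 22 bypass genes rose and 4 fell, 43 of 143 nitrogen genes rose and 38 fell, and 4 of 19 early nodulin-like genes fell. The shares of all genes there were 17.5% higher and 19.1% lower, so the lower counts of the cytochrome c oxidase and early nodulin-like lists are near them.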

How the data were processed

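Expected counts per gene, as estimated and deposited by the authors, and FPKM, also deposited by the authors and named so in the file headers, were read from a file that stacks the table of each set. Per the submitters' processing notes the tools were HISAT2, RSEM and StringTie 1.3.1, without roles. The genome build, not given in the sources used here, is unknown. FPKM over counts implied fixed lengths of 732 bases for PH02Gene12978 and 633 for PH02Gene12976. Growth stage libraries held 8615092 to 12422327 counts and plant part libraries 6257623 to 9010973.

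Counts were rounded and tested with edgeR 4.0.16 (quasi-likelihood, TMM, all groups of a set in 1 fit) in R 4.3.3, on the 29538 and 29630 genes that reached 1 FPKM in at least 3 libraries. Both listed genes passed in both sets. P-values were adjusted by the Benjamini-Hochberg method within a comparison over all genes tested, with calls at 0.05, and intervals are ± 1.96 SE. Counting intervals are exact, at 95%, for counting error only. On simulated counts with 200 changed genes the test recovered 67% of 4-fold and 79% of 8-fold changes for the 3-year over the 1-year stem (29538 genes, 4.58% of calls false), and 36% and 75% for branch over the part-set stem (29630 genes, 5.93% false). Alternatives used limma 3.58.1, DESeq2 1.42.0, other scalings, filters and sample sets.

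The members and lists were chosen with earlier results of these data known. Genes were named by rule: all family genes, the most alike genes by Pearson r, and from each list the most abundant gene and the largest called rise and fall. For the plant parts only some of the list genes this rule names are printed. Lists and markers were taken by words in descriptions, which name similar genes of other species. A list of other nodulin-named genes was dropped, and cinnamyl alcohol dehydrogenases were removed from the low-oxygen list, after values were seen, because the words had matched unrelated genes.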

Additional observations from a re-analysis of the deposited data

How the results depend on the processing

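Differences are log2, with adjusted p in parentheses. The labels do not say whether the replicate numbers pair the libraries. Deviations of libraries with the same number correlated between -0.107 and 0.209 in the growth stage set and between -0.142 and 0.194 in the plant part set. Libraries with different numbers were not compared, so these values cannot exclude pairing. With the replicate block, leaf over part-set stem gave -6.38 (0.0616) for PH02Gene12978 and -3.92 (0.172) for PH02Gene12976, and the near-zero values of PH02Gene12978 in the 3-year over the 2-year stem and of PH02Gene12976 in rhizome over branch changed sign, to -0.0198 and 0.0129. It changed no other call on these genes. With limma on log2(FPKM + 1) the 3 calls against the part-set stem were lost, at -2.57 (0.153) and -2.18 (0.141) for PH02Gene12978 and PH02Gene12976 in leaf and -2.62 (0.154) for PH02Gene12978 in rhizome. With a pseudocount of 0.1 these were -3.89 (0.186), -3.73 (0.0942) and -4.01 (0.184), and PH02Gene12976 in branch over part-set stem turned to 0.145. With only the 6 libraries compared, PH02Gene12976 in leaf gave -4.68 (0.0562) and PH02Gene12978 in rhizome -7.74 (0.0993), while leaf over branch was called for both, at -3.81 (0.0317) for PH02Gene12978 and -3.16 (0.0245) for PH02Gene12976. Other scalings, filters and DESeq2 changed no direction and no call of the tests on these genes. Leaving out 1 library at a time, PH02Gene12978 ranged from -1.20 to 0.53 in the 2-year over the 1-year stem, -1.19 to 0.55 in the 3-year over the 1-year stem and -0.29 to 0.31 in the 3-year over the 2-year stem, and PH02Gene12976 from -1.55 to 0.24 and -1.11 to 0.68 in those over the 1-year stem. Against the part-set stem PH02Gene12978 ranged from -10.8 to -2.14 in leaf, -4.52 to 1.66 in branch and -10.8 to -2.74 in rhizome, and PH02Gene12976 from -7.05 to -1.18, -2.08 to 1.95 and -3.05 to 1.61. PH02Gene12978 ranged from -3.08 to 3.63 in leaf over rhizome, and PH02Gene12976 from -1.52 to 0.28 in rhizome over branch. Over all alternatives the genes called ran from 1 to 1788 (443 as reported) in the 2-year over the 1-year stem, 684 to 4568 (2966) in the 3-year over the 1-year stem, 0 to 91 (2) in the 3-year over the 2-year stem, 9418 to 17604 (15891) in the 0.5-year stem over the shoot, 2137 to 11747 (8981) in the 1-year over the 0.5-year stem, 2 to 1828 (234) in branch, 7949 to 13007 (10843) in leaf and 3594 to 10691 (8762) in rhizome over the part-set stem, and 4506 to 9961 (8323) in rhizome over branch. Counts for lists under other settings, added after the data were seen, gave 2 to 9 early nodulin-like genes higher (5 as reported) and 23 to 51 nitrogen genes higher (39) in the 0.5-year stem over the shoot. Depth limits the plant parts most, where both genes had under 10 counts in leaf.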
